A study of Mus musculus with 6 samples.

Results

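The pocket protein genes Rb1, Rbl1 and Rbl2 were followed in primary prostate cells from p53-null mice, with Rb deleted or intact. Probes were chosen by gene: every non-control probe whose RefSeq accession belongs to one of these genes was taken, which gave 3 genes of the 20832 named on the array, with 4 probes and 13 spots per array. The Rb deleted group held 3 cultures of genotype p53-/- Rb deltaf/deltaf, infected overnight with an adenovirus carrying Cre recombinase. The Rb intact group held 3 cultures of genotype p53-/- Rbf/f, infected overnight with an adenovirus carrying lacZ. All 6 cultures lacked p53 and carried Rb alleles with loxP sites or their deleted form. Cells were grown in serum-free Prostacult medium with bFGF and bEGF, and RNA was taken 48 hours after infection. Each Rb deleted culture had the Cre vector and each Rb intact culture the lacZ vector, so an effect of the Cre virus and an effect of Rb loss cannot be told apart. The labels give no age of the mice and do not say whether cultures came from separate animals; the series design speaks of independent experiments.

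The retinoblastoma protein, encoded by Rb1, and its relatives p107 and p130, encoded by Rbl1 and Rbl2, are called pocket proteins after the fold that grips E2F transcription factors. In their hypophosphorylated form they hold E2F-bound promoters silent, and cyclin-dependent kinases release them as a cell passes from G1 into S phase. Rb binds mainly the activating E2F proteins, whereas p107 and p130 bind the repressive E2F4 and E2F5 and, with the MuvB proteins, form the DREAM complex of resting cells. Rbl1 is itself a known E2F target, and in other mouse cells the paralogs are known to cover part of the role of Rb after its loss. In prostate cancer, loss of RB1 is known from aggressive, androgen-independent disease.

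The promoters of the paralogs are shown because E2F is known to act on the promoter of Rbl1. Each runs from 250 bases before to 50 bases after the gene's start in RefSeq's GRCm38.p6 annotation, and the table of promoters gave 2 of the 3 genes. Capitals mark an E2F word, any of TTTCCCGC, TTTGGCGC, TTTGCCGC and TTTCGCGC, searched on both strands.
Rbl1 (chr2:157204485-157204784, minus strand): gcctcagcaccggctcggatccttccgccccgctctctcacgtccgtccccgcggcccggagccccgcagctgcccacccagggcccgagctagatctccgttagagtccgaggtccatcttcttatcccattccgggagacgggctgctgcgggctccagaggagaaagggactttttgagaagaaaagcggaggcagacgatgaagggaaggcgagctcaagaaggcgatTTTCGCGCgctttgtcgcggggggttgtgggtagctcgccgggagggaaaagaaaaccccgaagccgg
Rbl2 (chr8:91069807-91070106, plus strand): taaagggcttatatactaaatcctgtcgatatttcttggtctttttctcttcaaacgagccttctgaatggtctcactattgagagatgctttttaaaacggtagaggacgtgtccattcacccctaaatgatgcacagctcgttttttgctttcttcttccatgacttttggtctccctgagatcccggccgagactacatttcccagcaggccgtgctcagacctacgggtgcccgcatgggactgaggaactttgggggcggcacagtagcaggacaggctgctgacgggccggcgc
The Rbl1 window held 1 E2F word, TTTCGCGC, which began at position -18 counted from the start of the gene. The Rbl2 window held none of these words, which says only that these letters are not in this window. An E2F word stood in the windows of 2.6% of the 27025 genes in the table. The CHR word TTTGAA, the element that MuvB binds, was searched in the same way on both strands, and neither window held both kinds of word. It was absent from the Rbl1 window, was present at 1 place in the Rbl2 window, on the minus strand at position -201, and stood in the windows of 20.2% of genes. A match of letters is a description and not evidence of a bound site.

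Each RNA was labelled with Cy3 and hybridised to its own 1-colour Agilent array. Levels below are log2 intensities relative to the array's 75th percentile, and a level of 1 probe cannot be set against that of another. The share of probes well above background ranged from 58.7% to 63.3% over the arrays, and no non-control spot was saturated. The arrays lay on 2 slides: the first held Rb deleted 1 and all Rb intact arrays, and the second held Rb deleted 2 and 3. Among markers of the labelled tissue, the luminal genes Epcam and Hoxb13 were not well above background on any array, and the basal keratin Krt5 was so on 2 of 3 Rb deleted and 1 of 3 Rb intact arrays. Trp63, the transcription factor of basal cells, Krt14 and Krt18 were measured on all arrays, as were the fibroblast genes Col1a1, Col1a2, Pdgfra and Thy1. Of the leukocyte markers, Cd3e, Csf1r and Itgam were well above background on all 6 arrays, and Ptprc and Lyz2 on none.

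The question put first was whether the targeted gene was lower in the cells labelled Rb deleted. Rb1, the gene whose alleles carry the loxP sites, is measured by probe A_51_P136888, for which the array carries 10 spots. Its level was -3.13, -3.12 and -3.07 in the Rb deleted cultures, against -1.15, -1.14 and -1.17 in the Rb intact cultures. Every Rb deleted culture lay below every Rb intact culture, and the groups were far apart compared with the spread inside each. Groups without overlap were found for 45.2% of all genes. The means were -3.11 ± 0.03 in Rb deleted and -1.15 ± 0.02 in Rb intact (SD, n = 3 each). Rb1 fell by 1.96 ± 0.05 on the log2 scale (SE of the fit), to 25.7% of the intact signal with a 95% interval of 23.7% to 27.9% (limma adjusted p = 8.3e-05). In the fit of all 13729 genes, 20.3% of genes were called at a limma adjusted p under 0.05 and 10.8% were called as falls. Rb1 had the smallest p of these genes and the 37th largest fall. An exact two-sided permutation test over the 6 arrays gave p = 0.1, its lowest possible value here.

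**Figure D1:**
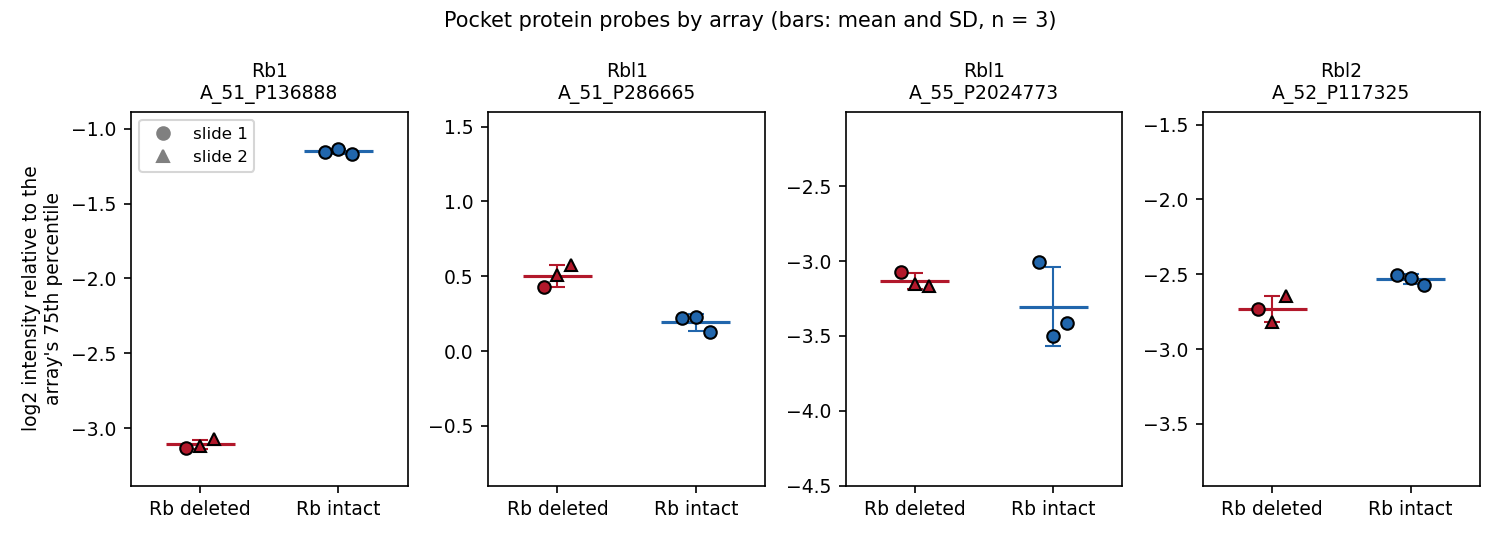
Log2 intensity of the 4 pocket protein probes relative to the array's 75th percentile (y axis; each panel has its own range of equal height) in Rb deleted (red, left) and Rb intact (blue, right) cultures. Points are arrays, circles slide 1 and triangles slide 2, with mean and SD (n = 3); Rb1 lies near -3.1 in Rb deleted and near -1.15 in Rb intact cultures, and the other panels show far smaller differences.

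The 10 spots show how well 1 spot measures this gene. After 2 outlying spots were left out, the 28 usable Rb deleted spots lay between -3.24 and -2.98, and the 30 Rb intact spots between -1.28 and -0.99. The highest usable Rb deleted spot was 1.69 below the lowest Rb intact spot. The left-out spots stood at -3.49 on Rb deleted 1 and at -2.66 on Rb deleted 2, the latter nearer to the Rb intact spots. Taken position by position on the array, the difference between the group means ran from -2.06 to -1.88 over the 10 positions, with a median of -1.95 and an SD of 0.05. The spots on 1 array had SDs of 0.05 to 0.07 on the log2 scale, compared with a median of 0.05 to 0.06 for all probes spotted 10 times that were well above background. The probes of Rbl1 and Rbl2 have 1 spot each and so lack this averaging.

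**Figure D2:**
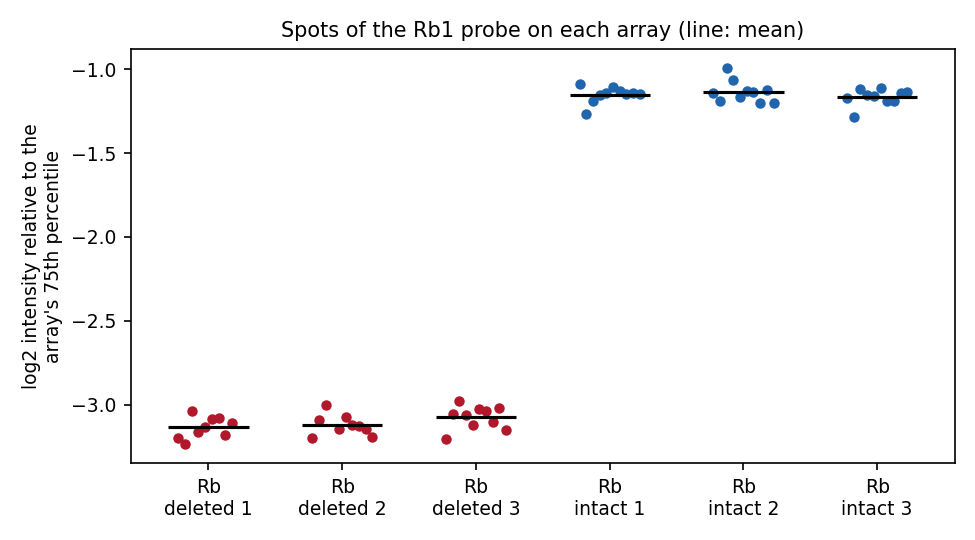
Log2 intensity of each usable spot of the Rb1 probe relative to the array's 75th percentile (y axis) on the 3 Rb deleted arrays (red, left) and the 3 Rb intact arrays (blue, right); the line is the array mean. No usable spot of one group comes within 1.69 of the other group, and outlying spots are not shown.

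All 28 usable Rb deleted spots of the Rb1 probe were still well above background, at a brightness of 413.0 to 544.3 units per spot, against 1461.9 to 2097.4 units in Rb intact cultures. In these bulk samples fewer cells with the transcript and less transcript per cell cannot be told apart. The sources used here do not place the probe on the transcript, so the value covers only the stretch it reads and does not by itself show that the loxP-flanked part was removed. On the first slide alone, where the lone Rb deleted array is assumed to vary like the others, Rb1 gave -1.98 (limma adjusted p = 0.0211; 0.19% of genes rose and 0.933% fell). A fit with slide as a block, which rests on the same 4 arrays for the contrast, gave -1.98 as well (limma adjusted p = 0.0051; 1.38% of genes rose and 3.53% fell). With each array left out in turn it stayed between -1.98 and -1.95 (limma adjusted p of 9.39e-05 to 0.00209). The share of all genes that fell was 7.09%, 5.83% and 5.76% without Rb deleted 1, 2 and 3, and 18.3%, 7.39% and 6.88% without Rb intact 1, 2 and 3.

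The next comparison asked whether the paralogs changed when Rb was deleted. Rbl1 was higher in all Rb deleted cultures by its brighter probe, and Rbl2 was lower in all of them, but only the rise of Rbl1 passed the test across all genes. Rbl1, which encodes p107, gave 0.43, 0.51 and 0.57 with probe A_51_P286665 in Rb deleted cultures, against 0.22, 0.23 and 0.13 in Rb intact cultures. All Rb deleted arrays lay above all Rb intact arrays, where 45.2% of all genes had groups without overlap. The lowest of the Rb deleted arrays was the one on the first slide. The means were 0.50 ± 0.07 in Rb deleted and 0.19 ± 0.06 in Rb intact (SD, n = 3 each). Rbl1 rose by 0.31 ± 0.06 (SE), a fold of 1.24 with a 95% interval of 1.12 to 1.38 (limma adjusted p = 0.0191), where 9.45% of all genes rose. The exact two-sided permutation p was 0.1. Before scaling, the spot's brightness was 5412.1, 5378.9 and 6366.7 units in Rb deleted cultures, against 4104.0, 4899.2 and 4258.4 units in Rb intact cultures, so these groups did not overlap either.

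The Rbl1 call depended on single arrays and on the slide. The share of all genes that rose was 6.03%, 3.19% and 3.24% without Rb deleted 1, 2 and 3, and 18.8%, 5.24% and 5.25% without Rb intact 1, 2 and 3. The Rbl1 call was lost without Rb deleted 2, where the difference was 0.31 (limma adjusted p = 0.0848), without Rb deleted 3 at 0.28 (adjusted p = 0.0861) and without Rb intact 3 at 0.28 (adjusted p = 0.0661). With slide as a block the difference was 0.24 ± 0.09 (SE) with a limma adjusted p of 0.224, and within the first slide it was again 0.24 with an adjusted p of 0.454.

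A second Rbl1 probe, A_55_P2024773, which carries the accession of another Rbl1 transcript, did not pass the test. It gave -3.07, -3.16 and -3.17 in Rb deleted cultures, against -3.00, -3.50 and -3.41 in Rb intact cultures. The groups overlapped, because Rb intact 1 was higher than all 3 Rb deleted arrays while the other Rb intact arrays were lower than all of them. The difference was 0.17 ± 0.13 (SE), with a 95% interval of -0.15 to 0.50 (limma adjusted p = 0.42 over 23047 probes, of which 15.7% were called). Without Rb intact 1 this probe gave 0.32 ± 0.05, with a limma adjusted p of 0.0128. In that fit 14.6% of all probes rose. With any other array left out, the second probe gave between 0.08 and 0.19 and was not called. The changes of the 2 Rbl1 probes differed by 0.14, with an exact two-sided permutation p of 0.6.

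Rbl2, which encodes p130, is measured by probe A_52_P117325. It gave -2.73, -2.82 and -2.65 in Rb deleted cultures, against -2.50, -2.53 and -2.57 in Rb intact cultures. The groups did not overlap, although Rb deleted 3 and Rb intact 3 lay close together; 45.2% of all genes had groups without overlap. The means were -2.73 ± 0.09 in Rb deleted and -2.53 ± 0.03 in Rb intact (SD, n = 3 each). The difference was -0.20 ± 0.06 (SE), with a 95% interval of -0.35 to -0.05 and a limma adjusted p of 0.0738, so it did not pass the threshold. The unadjusted limma p was 0.0187 and the exact two-sided permutation p was 0.1. Before scaling, the spot's brightness was 605.4, 535.4 and 683.4 units in Rb deleted cultures, against 621.7, 724.3 and 656.5 units in Rb intact cultures, and these unscaled groups overlapped. The interval allows a signal of 78.3% to 96.9% of the intact signal. It was also not called when any 1 array was left out, with differences of -0.24 to -0.15 (limma adjusted p of 0.0687 to 0.24).

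The difference between the paralogs' changes was tested within arrays, where scaling cancels. Relative to the Rb intact mean of 0, the level of Rbl1 minus that of Rbl2 was 0.43, 0.60 and 0.49 in Rb deleted cultures, against 0.00, 0.03 and -0.03 in Rb intact cultures. The Rb deleted mean was 0.51 ± 0.09 and the Rb intact SD was 0.03 (n = 3 each). All 3 Rb deleted arrays lay above all 3 Rb intact arrays, and the exact two-sided permutation p of 0.1 was the smallest this design allows. Each paralog alone already had groups without overlap, as 45.2% of all genes had, and in opposite directions. The order of the arrays and this p were therefore fixed by those values and are no further support. With the second Rbl1 probe the same difference was 0.37 (exact two-sided permutation p = 0.2).

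**Figure D3:**
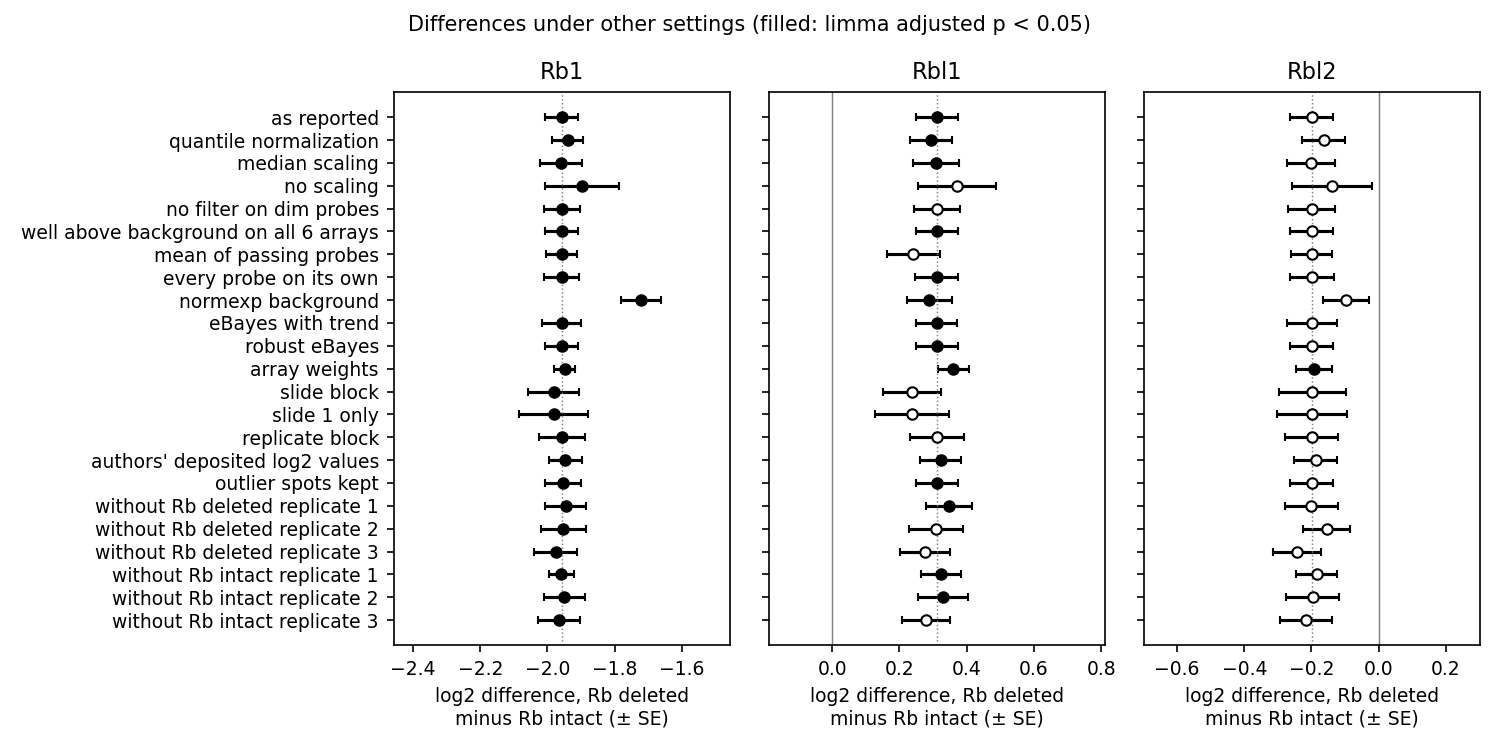
Difference of Rb1, Rbl1 and Rbl2 on the log2 scale, Rb deleted minus Rb intact (x axis, ± SE of the limma fit), as reported and under 22 other settings (rows); filled points have a limma adjusted p under 0.05. Rb1 is filled in every row and lies between -1.98 and -1.72, Rbl1 lies between 0.24 and 0.37 and is open in 9 of the 22, and Rbl2 lies between -0.24 and -0.10 and is filled only with array weights.

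The genes whose level followed each pocket protein most closely over the 6 arrays were found by Pearson's r of log2 levels, which here mostly reflects the step between the groups. For Rb1 they were Scrn1, Fam43a and Prl2c5, with r of 0.9995 to 0.9998 and differences of -0.94, -0.89 and -1.17. For Rbl1 they were Rabepk, Ddah1 and Snx9, with r of 0.996 to 0.999 and differences of 0.20, 0.13 and 0.16. For Rbl2 they were Pde5a, Gp1bb and Rassf6, with r of 0.985 to 0.987 and differences of -0.38, -0.26 and -0.52. Such values come from 6 arrays and 13729 genes and are given as a description.

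Genes next to the pocket protein genes were examined because they lie beside the targeted locus and its paralogs. Of the 5 genes on each side of the 3 loci in the order of the RefSeq table, 13 of 30 were tested; 1 rose and none fell at the limma threshold, which 9.45% and 10.8% of all genes did, and 3 rose and 2 fell at an unadjusted p under 0.05. Lpar6, a lysophosphatidic acid receptor gene that lies inside Rb1, gave 1.17 ± 0.01 in Rb deleted and 1.08 ± 0.10 in Rb intact cultures (SD, n = 3 each). Its difference was 0.09 ± 0.06 (SE), with a 95% interval of -0.07 to 0.25 and a limma adjusted p of 0.358, while the gene around it fell by 1.96. The other tested neighbours of Rb1 were not past the threshold either: Itm2b gave -0.25 (adjusted p = 0.0642), Gm9199 gave -0.21 (adjusted p = 0.0807) and Rcbtb2 gave 0.27 (adjusted p = 0.103). Beside Rbl1, Samhd1, a deoxynucleotide triphosphatase gene, rose by 0.25 ± 0.07 (limma adjusted p = 0.0483), and the call was lost when any array but Rb intact 1 was left out, with slide as a block (adjusted p = 0.302) and with the replicate block (adjusted p = 0.109). Dsn1, Soga1, Tldc2, Rpn2 and Ghrh, also beside Rbl1, were not past the threshold. Around Rbl2, the differences of Chd9, Aktip and Rpgrip1l were -0.08, 0.02 and -0.21, and none passed the limma threshold.

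A list of E2F and MuvB partners came next: the E2F and DP transcription factors, the MuvB subunits, Mybl2 and Dyrk1a. The Mybl2 protein takes the place of the pocket protein on MuvB, and Dyrk1a encodes the kinase that favours DREAM assembly. The list is therefore wider than the proteins that pocket proteins hold. Of 17 tested genes 4 rose and none fell, or 23.5% rises, against 9.45% rises and 10.8% falls over all genes. At an unadjusted limma p under 0.05, 6 of the 17 rose and none fell, where 2453 of all 13729 genes rose and 2410 fell. The median difference was 0.14, against 0.01 over all genes. E2f2, an activating E2F, stood at -0.13, -0.09 and -0.14 in Rb deleted cultures, against -1.11, -0.68 and -0.62 in Rb intact cultures. The Rb deleted arrays were tightly grouped and all higher, and Rb intact 1 was the lowest array. E2f2 rose by 0.68 ± 0.13 (SE), 1.61-fold (limma adjusted p = 0.0163). E2f7, an atypical E2F that represses E2F targets, stood at 1.22, 1.23 and 1.19 in Rb deleted and 0.35, 0.81 and 0.84 in Rb intact cultures. It rose by 0.55 ± 0.13 (adjusted p = 0.0365), and Rb intact 1 was again the lowest array. Mybl2 rose by 0.54 ± 0.10 (adjusted p = 0.0154) and Dyrk1a by 0.24 ± 0.05 (adjusted p = 0.0262).

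The partners that bind p107 and p130 most closely were not past the threshold. E2f4, the main repressive E2F, gave -0.15 ± 0.16 (limma adjusted p = 0.544), and its relative E2f5 gave -0.06 ± 0.09 (adjusted p = 0.652). Among the MuvB subunits, Lin9 gave 0.17 ± 0.07, Lin52 gave 0.13 ± 0.10, Lin54 gave 0.17 ± 0.13, Lin37 gave 0.02 ± 0.06 and Rbbp4 gave -0.01 ± 0.08. The DP gene Tfdp1, which encodes the usual dimer partner of E2F, gave 0.26 ± 0.07 (adjusted p = 0.053), and Tfdp2 gave -0.08 ± 0.05. E2f1, itself an E2F target, gave 0.09 ± 0.11 (adjusted p = 0.579), E2f3 gave 0.07 ± 0.09, E2f6 gave 0.14 ± 0.06 and E2f8 gave 0.20 ± 0.07 (adjusted p = 0.0776). With slide as a block none of the 17 passed the limma threshold, with 4 at an unadjusted p under 0.05, and the median was 0.17. In that fit 1.38% of all genes rose and 3.53% fell. Leaving out Rb deleted 1, 2 or 3 also ended all 4 calls, with 6, 5 and 5 genes at an unadjusted p under 0.05. In those fits 6.03%, 3.19% and 3.24% of all genes rose. Without Rb intact 1 there were 7 rises, where 18.8% of all genes rose.

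**Figure D4:**
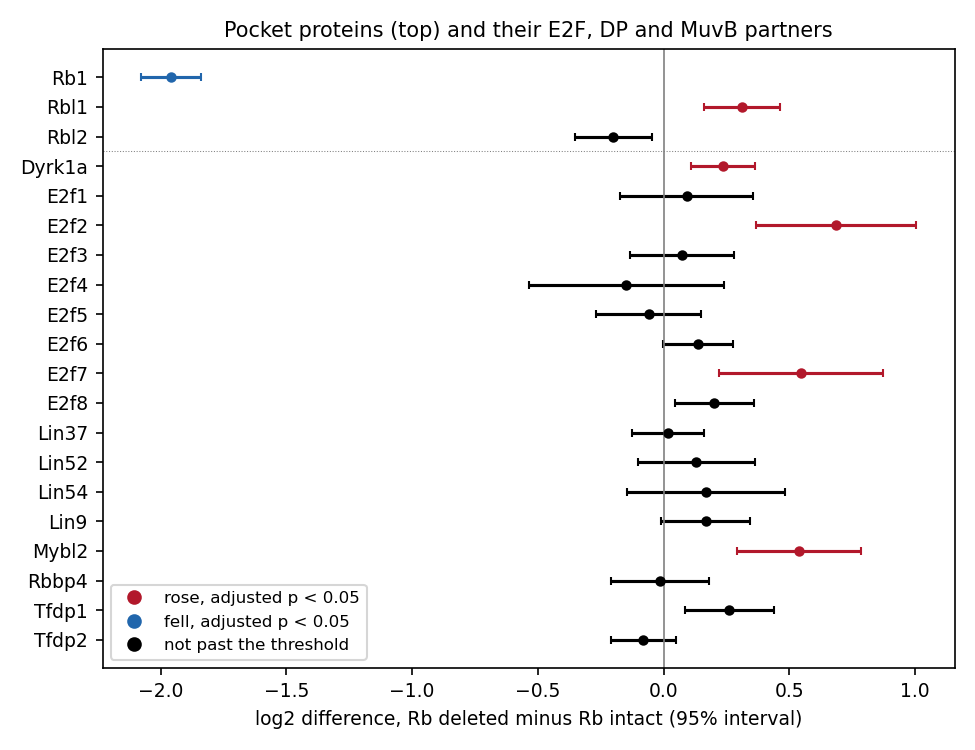
Difference on the log2 scale, Rb deleted minus Rb intact (x axis), with its 95% interval for the 3 pocket protein genes (above the dotted line) and 17 E2F, DP and MuvB partners. Red genes rose, blue fell and black did not pass a limma adjusted p of 0.05; only Rb1 is blue, and E2f2, E2f7, Mybl2, Dyrk1a and Rbl1 are red.

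Upstream of the pocket proteins stand the G1 cyclins and their kinases, which phosphorylate them, the kinase inhibitors and the phosphatases that reverse it. Of 23 tested genes 3 rose and 1 fell, or 13.0% and 4.35%, against 9.45% and 10.8% of all genes, and the median difference was 0.05, against 0.01 over all genes. Cdkn1a, which encodes the kinase inhibitor p21, stood at -1.09, -1.03 and -1.15 in Rb deleted cultures, against -1.73, -2.03 and -2.03 in Rb intact cultures. The groups did not overlap, as for 45.2% of all genes. Cdkn1a rose by 0.84 ± 0.10 (SE), 1.79-fold (limma adjusted p = 0.00281). Cdkn1c, encoding the inhibitor p57, fell by 0.52 ± 0.07 (adjusted p = 0.00504). Cdc25a, a phosphatase that activates Cdk2, rose by 0.31 ± 0.06, and Cdk2 rose by 0.24 ± 0.06 (adjusted p = 0.0473). With slide as a block Cdkn1a remained past the threshold (limma adjusted p = 0.0483) and the calls of Cdkn1c (adjusted p = 0.0743), Cdc25a (0.169) and Cdk2 (0.353) were lost, and on the first slide alone Cdkn1a was lost too (0.137). The D cyclin gene Ccnd2 gave -0.26 ± 0.07 (adjusted p = 0.0512). Without Rb intact 1, 7 upstream genes rose and 3 fell, where 18.8% of all genes rose and 18.3% fell. Without any 1 Rb deleted array or Rb intact 2, 1 rose and 1 fell. In those fits 3.19% to 6.03% of all genes rose and 5.76% to 7.39% fell. Cdkn2a, the locus of the inhibitor p16, gave 0.06 ± 0.11 (adjusted p = 0.712). Whether its probe reads the transcript of p16 was not examined.

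Proteins that pocket proteins recruit to chromatin or bind through the pocket were also listed. Of 35 tested genes 3 rose and 1 fell, or 8.57% and 2.86%, against 9.45% and 10.8% of all genes, so they were called no more often than genes at large. Their median difference was 0.00, against 0.01 over all genes. Id2, whose protein binds hypophosphorylated Rb, fell by 0.44 ± 0.06 (limma adjusted p = 0.00575). Rbbp8, which encodes the end-resection protein CtIP, rose by 0.37 ± 0.06 (adjusted p = 0.00798), the condensin subunit gene Ncapd3 by 0.31 ± 0.05 (adjusted p = 0.00751) and the arginine methyltransferase gene Prmt5 by 0.27 ± 0.05 (adjusted p = 0.0169). Eid1, whose protein binds Rb, gave -0.26 ± 0.08 (adjusted p = 0.0772). With slide as a block none of these 35 genes passed the limma threshold, with 4 at an unadjusted p under 0.05. In that fit 1.38% of all genes rose and 3.53% fell. Without Rb intact 1 there were 9 rises and 4 falls, where 18.8% of all genes rose and 18.3% fell.

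Rbl1 was finally set beside other genes that E2F is known to drive. Of 54 tested E2F target genes 29 rose and none fell, also none at an unadjusted limma p under 0.05, where 40 rose; the share that rose was 53.7%, against 9.45% of all genes. Their median difference was 0.29. Rbl1, at 0.31 by its brighter probe, lay near the middle, with 23 targets above it and 31 below. This place depended on probe and slide: the second Rbl1 probe gave 0.17 and the mean of the probes 0.24. With slide as a block the brighter probe gave 0.24, where the target median was 0.30. Cdt1, a loader of the replicative helicase, stood at 3.29, 3.31 and 3.21 in Rb deleted cultures, against 2.82, 2.80 and 2.81 in Rb intact cultures. It rose by 0.46 ± 0.05 (SE, limma adjusted p = 0.00268). The groups did not overlap, as for 45.2% of all genes, and the spread inside them was far smaller than the difference. The mismatch repair gene Msh6 rose by 0.44 ± 0.05, the ligase gene Lig1 by 0.39 ± 0.05, the helicase subunit gene Cdc45 by 0.52 ± 0.06 and the histone chaperone gene Chaf1b by 0.44 ± 0.06. Ccne1, the E cyclin gene, gave -0.01 ± 0.13 (adjusted p = 0.973). The lists share members: Mybl2 and Cdc25a, rises counted above among the partners and the upstream regulators, are also among the 29 rises here. E2f1 and Ccne1 are shared between lists as well. With slide as a block 2 of the 54 rose, where 1.38% of all genes did, and the median was 0.30, with all 54 differences above 0. Within the first slide none passed the limma threshold, with 18 at an unadjusted p under 0.05. Leaving out Rb deleted 1, 2 or 3 left 18, 14 and 14 rises, where 6.03%, 3.19% and 3.24% of all genes rose. Leaving out Rb intact 1 left 47, where 18.8% of all genes rose.

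**Figure D5:**
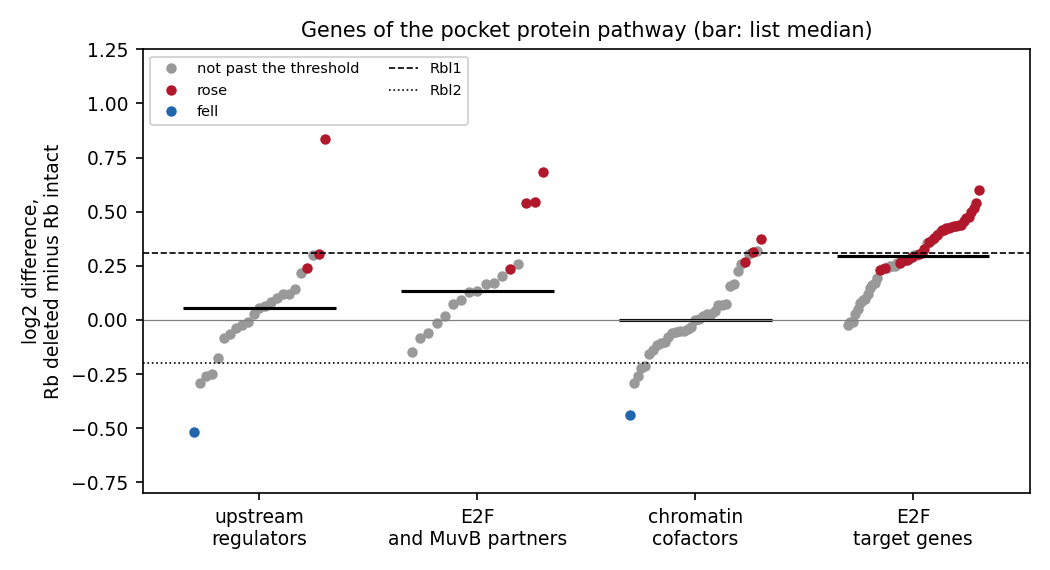
Difference of each tested gene on the log2 scale, Rb deleted minus Rb intact (y axis), in 4 lists of the pocket protein pathway (x axis); red rose, blue fell, grey did not pass a limma adjusted p of 0.05, and the bar is the list median. The E2F target genes centre on 0.29, close to the dashed line of Rbl1 at 0.31, which is its brighter probe. The other medians lie between 0.00 and 0.14, and the dotted line is Rbl2 at -0.20.

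Stretches of promoter windows around an E2F word are shown for partners that rose and for the targets named above, to set beside the Rbl1 promoter. Each is from RefSeq's GRCm38.p6 annotation, 5′ to 3′ on the gene's strand, with the E2F word or its reverse complement in capitals. Mybl2, Cdc45 and Chaf1b, also named above, give no stretch to show. Some genes of these lists had no promoter in the table. For these 3 genes a window without the words and a missing window are not told apart here.
E2f2 (chr4:136172303-136172323, plus strand): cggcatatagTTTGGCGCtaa
E2f7 (chr10:110745231-110745258, plus strand): ccgcgtccccGCGGGAAAcgctcccgcg
Dyrk1a (chr16:94611418-94611445, plus strand): gtgttatagtTTTGCCGCtggactcttc
Cdt1 (chr8:122568037-122568064, plus strand): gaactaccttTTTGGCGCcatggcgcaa
Msh6 (chr17:87975055-87975082, plus strand): tcctcccgacTTTCCCGCcagcggcggc
Lig1 (chr7:13278842-13278869, plus strand): gccaaagtgcGCGCGAAAtctgtgtggc
An E2F word stood in the promoter windows of 16 of the 44 E2F target genes found in the table, or 36.4%, and in those of 6 of 14 partner genes, against 2.6% of all genes. It also stood in those of 3 of 18 upstream regulators, or 16.7%, and 4 of 27 chromatin cofactors, or 14.8%. The TTTCGCGC word of Rbl1 was also the word in the Lig1 window, there on the other strand.

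Markers of cell types were compared between the groups in the same fit. Of 4 tested basal markers 3 fell, against 10.8% of all genes, Itga6 by 0.58 ± 0.08, Itgb4 by 0.42 ± 0.08 and Trp63 by 0.26 ± 0.07 (limma adjusted p of 0.00517, 0.0132 and 0.0441). The summed signal of the 4 ran from 20.8 to 21.4 in Rb deleted and from 28.7 to 34.4 in Rb intact arrays, in units of the 75th percentile. Itga6, at mean levels of 4.29 in Rb deleted and 4.87 in Rb intact cultures, made up most of this sum. Trp63 stood at 0.54 and 0.80, and the others were lower, so the sum mainly restates Itga6. With slide as a block the 3 basal calls were lost (limma adjusted p of 0.0743 for Itga6, 0.0966 for Itgb4 and 0.386 for Trp63). The call of Trp63 was also lost when any array but Rb intact 1 was left out, and that of Itgb4 without Rb deleted 3 (adjusted p = 0.0587) or Rb intact 3 (adjusted p = 0.0503). Of 7 tested fibroblast and smooth muscle markers only Acta2 fell at the limma threshold, by 1.35 ± 0.14. At an unadjusted limma p under 0.05, 3 of the 7 fell and none rose, where 2410 of all 13729 genes fell. With slide as a block the call of Acta2 was kept (limma adjusted p = 0.0398), and on the first slide alone its difference was -1.34. The summed signal of the 7 ran from 216.2 to 237.6 in Rb deleted and from 236.9 to 250.3 in Rb intact arrays. The luminal sum ran from 9.57 to 11.02 in Rb deleted and from 11.1 to 12.3 in Rb intact arrays, over 5 tested genes of which none passed the limma threshold and 1 had an unadjusted p under 0.05. Krt18, at mean levels of 3.29 in Rb deleted and 3.46 in Rb intact cultures, made up most of the luminal sum. Of the 5 luminal genes 2 had a difference above 0, among them Krt8 at 0.42 (limma adjusted p = 0.0665). Of 4 endothelial markers 1 was called, Vwf, which passed the filter only through the Rb intact arrays and was well above background on 1 of 3 Rb deleted arrays, so no size is given for it. Their summed signal ran from 3.29 to 3.96 in Rb deleted and from 3.79 to 3.93 in Rb intact arrays. Of 3 leukocyte markers none passed the limma threshold, also none at an unadjusted p under 0.05, and their sum ran from 4.10 to 4.79 in Rb deleted and from 2.73 to 6.75 in Rb intact arrays. The part of these marker values in the values of Rbl1, Rbl2 and the lists was not tested.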

How the data were processed

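The scanner files hold intensity values, background-subtracted spot brightness of 1-colour arrays, which the authors obtained from Agilent's Feature Extraction software (per the file headers, version 11.0.1.1; the submitters' processing notes give 10.7.3.1). The deposited files also carry flags of 0 or 1 for spots well above background, saturated or outlying. A further file the authors deposited holds log2 values, and on every array these were the scanner's processed intensity on a log2 scale less a constant, within 0.01 for at least 99.9% of the 22164 non-control probes, with column medians of -0.52 to -0.49 and the direction of the intensity. How that constant was chosen is not given in the sources used here.

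Outlying spots were left out of 43020 non-control spots, log2 intensities were averaged to 39429 probes, and each array was shifted by the 75th percentile of its spots. A probe was kept if 1 or both groups had it well above background on all 3 of their arrays. A probe counted as above background where at least 50% of its spots were. RefSeq accessions named 27427 probes through a table of assembly GRCm38.p6; the files hold no gene name column, and their design is on build mm9, so that table gave names and neighbours only. Each gene took its passing probe of highest mean. The comparison used limma (version 3.58.1, R version 4.3.3; lmFit, eBayes, Benjamini-Hochberg adjusted p under 0.05, no block), on the log2 scale with no pseudocount. The fit was also run on simulated data.

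The members and lists were chosen with earlier results of these data known. Named genes were all members and neighbours, up to 5 genes per list with the smallest p, every E2F, DP and MuvB gene, the 3 genes most like each member, and all markers; Ccne1 and Cdkn2a were named after their values were seen. Some genes that the rule names are withheld and are not reported here. Replicates are labelled samples, so p-values measure the spread between these samples, and 3 arrays a group limit the precision. Slide, replicate number, scaling, filters, probe choice, variance model, background model and left-out arrays were varied. Normexp used median spot signal with an offset of 50.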

Additional observations from a re-analysis of the deposited data

How the results depend on the processing

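Rb1 was called as a fall under all 22 other settings (-1.98 to -1.72, the value of -1.72 with normexp background). Rbl1 stayed positive in all 22, and its call was lost with no scaling (0.37), no filter on dim probes (0.31), the mean of its probes (0.24), slide as a block or only slide 1 (0.24) and the replicate block (0.31); with an array left out it ranged from 0.28 to 0.35. Rbl2 stayed negative (-0.24 to -0.10) and was called only with array weights (-0.19, adjusted p = 0.0239). The Rbl1 minus Rbl2 change was 0.39 with normexp, 0.44 with the mean of the Rbl1 probes, 0.37 with the second probe and 0.46 to 0.55 with an array left out. The cause of these changes was not tested.

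The number of genes called, 2781 in all, was 1289 without scaling, 1483 without the filter, 6872 with array weights, 674 with slide as a block, 154 on slide 1 only and 1236 to 5102 with an array left out, the highest without Rb intact 1. Under the same settings the E2F targets called, 29, were 12, 18, 49, 2, 0 and 14 to 47; the partners, 4, were 1, 0, 9, 0, 0 and 0 to 7; the upstream regulators, 4, were 2, 2, 12, 1, 0 and 2 to 10; and the chromatin cofactors, 4, were 2, 3, 18, 0, 0 and 3 to 13, with 8 by the mean of probes and 7 by every probe. Where limma called 0 on slide 1, 18, 2, 2 and 3 members of these lists in that order had an unadjusted p under 0.05; without the filter 6 partners had, and with slide as a block 4 partners and 4 cofactors had.

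Deviations of same-numbered arrays correlated at -0.03, -0.05 and 0.02, so no pairing by replicate number was seen. With 3 arrays a group, and slides split unequally between the groups, such values cannot exclude pairing. With the replicate block 1641 genes were called, and 17 targets, 2 partners, 2 upstream regulators and 2 cofactors; Rb1 gave -1.96 (adjusted p = 0.00252). Groups of 3 arrays limit every value, and the Rbl1 and Rbl2 probes rest on 1 spot per array.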
